A study of Mus musculus with 6 samples.

Results

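The 10 macrophage marker genes examined here were *Adgre1*, *Cd68*, *Csf1r*, *Mrc1*, *Cd163*, *Cd14*, *Lyz2*, *Fcgr1*, *Trem2* and *Lyve1*. They were taken by symbol from a table of 41709 genes, and the list was chosen with earlier results of these data known, although the rule itself uses no measured value. The table held all 10. Their mRNA was measured by RNA-seq in 6 tibialis anterior (TA) muscles, the muscle at the front of the shin, of male C57BL/6J mice. In 3 muscles a plasmid for Flag-tagged wild-type mouse Lrpprc (LrpprcWT) had been electroporated, and in the other 3 a plasmid for Flag-tagged LrpprcP27A, in which proline 27 is replaced by alanine. Lrpprc is an RNA-binding protein of mitochondria, and the replacement is meant to keep this proline from being hydroxylated. Both plasmids used the CMV promoter, both muscle types kept the endogenous gene, and both were collected 14 days after electroporation. The study describes the muscles as contralateral, so that both treatments met in the same mice. The age of these mice was not given in the sources used here. An unelectroporated muscle and a control plasmid were not analysed here, so a level can be compared between the variants but not with untreated muscle.

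Macrophages are phagocytes of the innate immune system. Skeletal muscle holds resident macrophages in the connective tissue between the fibres, and injury, which includes electroporation, draws in monocytes that become macrophages. These cells clear dead fibres, release cytokines and growth factors, and act on fibroblasts and muscle stem cells during repair. The 10 markers cover general markers (*Adgre1*, *Cd68*, *Csf1r*), scavenger and hyaluronan receptors often used for resident or anti-inflammatory macrophages (*Mrc1*, *Cd163*, *Lyve1*), and genes of antimicrobial defence, Fc receptors and phagocytic signalling (*Lyz2*, *Cd14*, *Fcgr1*, *Trem2*).

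With LrpprcP27A, 8 of the 10 markers were lower than with LrpprcWT in every comparison of single libraries, by 1.99-fold for *Csf1r* to 4.26-fold for *Trem2* in the ratio of group means. *Cd163* lay the other way, with every LrpprcP27A library above every LrpprcWT library, and the groups overlapped for *Lyve1*. The promoters of 4 markers are printed because these genes represent the patterns: *Cd68*, *Mrc1* and *Lyz2* were lower with LrpprcP27A, and *Cd163* was not. Each is the RefSeq sequence of mouse build GRCm38.p6 from 250 bases before to 50 after the gene's start, printed 5′ to 3′ on the strand of the gene. They lie at chr11:69666121-69666420 (minus strand) for *Cd68*, chr2:14229164-14229463 (plus strand) for *Mrc1*, chr10:117282223-117282522 (minus strand) for *Lyz2* and chr6:124304401-124304700 (plus strand) for *Cd163*. Capitals mark GAGGAA, the core bound by PU.1, the factor encoded by *Spi1* that directs macrophage development, or its reverse complement TTCCTC.
Cd68: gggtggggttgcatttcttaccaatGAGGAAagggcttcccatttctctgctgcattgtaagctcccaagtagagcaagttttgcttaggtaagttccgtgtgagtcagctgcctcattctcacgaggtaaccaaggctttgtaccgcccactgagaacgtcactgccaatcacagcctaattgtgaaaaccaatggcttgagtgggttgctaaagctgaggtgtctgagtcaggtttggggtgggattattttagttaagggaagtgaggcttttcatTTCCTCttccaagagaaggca
Mrc1: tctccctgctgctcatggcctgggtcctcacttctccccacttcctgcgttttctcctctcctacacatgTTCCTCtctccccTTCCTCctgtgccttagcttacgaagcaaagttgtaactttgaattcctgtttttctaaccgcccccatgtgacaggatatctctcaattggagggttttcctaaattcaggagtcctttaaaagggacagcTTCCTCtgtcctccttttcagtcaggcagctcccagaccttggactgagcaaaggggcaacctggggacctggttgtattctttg
Lyz2: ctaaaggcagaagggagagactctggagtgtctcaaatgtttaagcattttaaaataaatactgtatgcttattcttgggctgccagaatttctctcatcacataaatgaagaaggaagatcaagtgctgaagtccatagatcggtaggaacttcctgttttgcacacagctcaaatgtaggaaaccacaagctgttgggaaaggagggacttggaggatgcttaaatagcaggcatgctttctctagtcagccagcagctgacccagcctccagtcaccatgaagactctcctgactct
Cd163: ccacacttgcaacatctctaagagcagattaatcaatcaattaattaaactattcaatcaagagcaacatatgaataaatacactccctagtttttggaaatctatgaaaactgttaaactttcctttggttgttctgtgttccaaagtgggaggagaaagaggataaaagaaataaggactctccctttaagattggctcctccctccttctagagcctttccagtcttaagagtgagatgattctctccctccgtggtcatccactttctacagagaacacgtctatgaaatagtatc

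A promoter was used for 6 of the 10 markers, and those of *Csf1r* and *Cd14* are not reported here. GAGGAA was found on either strand in 4 of the 6, with 3 matches in *Mrc1*, 1 on each strand in *Cd68*, and 1 each in *Fcgr1* and *Trem2*, and the letters were not in the windows of *Lyz2* and *Cd163*. The same letters were in 9289 of all 32851 promoters of this length (28.3%). A match is a run of letters and not a measured binding site.

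The deposited values are TPM, which are corrected for transcript length and scaled to the same sum in each library. Levels may therefore be compared between genes, but the sequencing depth is unknown and no counting error can be given. The defining mRNAs of muscle fibres were the most abundant of the marker lists, with *Acta1*, skeletal actin, at 41312 ± 3264 TPM with LrpprcWT and 36285 ± 1019 TPM with LrpprcP27A (SD, n = 3), so the tissue label held. Between 18603 and 19053 genes were above 0 in the LrpprcWT libraries and between 17774 and 18197 in the LrpprcP27A libraries. Genes of the mitochondrial genome took 36.0% to 45.2% of the TPM with LrpprcWT and 44.2% to 46.1% with LrpprcP27A, and ribosomal RNA genes took 1.58% to 2.29% and 4.31% to 5.13%. *Lrpprc* itself, whose value does not separate plasmid from endogenous transcripts or the variants from each other, was at 35.1, 37.0 and 75.2 TPM in the LrpprcWT libraries of replicates 1, 2 and 3 and at 26.9, 29.7 and 26.0 TPM with LrpprcP27A. The library with the most *Lrpprc*, LrpprcWT replicate 3, also had the highest value of 8 of the 10 macrophage markers. It had the smallest mitochondrial share as well, 36.0%, and the share of all genes that were highest in it was not counted. Its median-of-ratios factor (explained below) was also the largest, 1.25, next to 1.22 in LrpprcWT replicate 1, so its middle gene ran high. By qRT-PCR, the study reported similar *Lrpprc* mRNA with both plasmids. It does not say whether these muscles were among those measured. The part of *Lrpprc* dose, ribosomal RNA and mitochondrial share in the marker differences was not tested. LrpprcP27A was set against LrpprcWT without pairing, by limma on log2(TPM + 1) over the 11611 genes whose mean TPM reached 1, and a gene was called at a Benjamini-Hochberg adjusted p under 0.05. Below, log2 fold changes (log2FC) are LrpprcP27A minus LrpprcWT from this fit, with their standard error (SE), and values are in the order of replicates 1, 2 and 3.

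Of the 9 markers whose mean TPM reached 1, 8 were called lower with LrpprcP27A and none higher. That mean is over both groups. *Fcgr1* and *Trem2* reached it only through LrpprcWT, since all their LrpprcP27A values were under 1 TPM. Their calls are therefore weaker support than those of the other markers. *Cd163*, higher with LrpprcP27A, fell under the filter. Genes of the lists below could also pass through 1 group alone. Among all genes tested, 23.3% were called lower and 1.34% higher. The median log2FC of the 9 markers was -1.01, against -0.32 over all genes tested. In bulk muscle, fewer macrophages and less of these mRNAs per macrophage cannot be told apart. With the replicate number as a block, which compares the muscles of each same-numbered pair, the same count of 8 was called lower, against 48.4% of all genes. The 8 markers were lower in 3 of 3 pairs, as any gene must be whose groups do not overlap in that direction. For single markers, 3 libraries against 3 allow no exact two-sided permutation p below 0.1, which 9 of the 10 markers reached. Groups did not overlap in the lower direction for 8 of the 9, and for 47.6% of all genes tested, so separation alone was common in these libraries.

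The scale of the libraries changed the number of calls. Most genes were lower on the TPM scale, and median-of-ratios scaling, which sets each library by its middle gene, moved the median of all genes from -0.32 to -0.0047. Under this scaling 5 markers were called lower, *Cd68*, *Lyz2*, *Cd14*, *Mrc1* and *Trem2*, against 6.03% of all genes, and the calls over all genes were 700 lower and 609 higher in place of 2705 and 156. The median log2FC of the markers was then -0.83. *Adgre1*, *Csf1r* and *Fcgr1* had log2FC of -0.87, -0.54 and -0.77 there, with adjusted p of 0.0568, 0.135 and 0.0917. With this scaling and the block together, 8 markers were called lower, against 15.8% of all genes. The calls also rested on single libraries. Without LrpprcWT replicate 3, limma called 0 markers at an adjusted p under 0.05 and 7 at an unadjusted p under 0.05. The count was 3 without LrpprcWT replicate 1, and 4 without LrpprcP27A replicate 2 or without replicate 3.

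**Figure D1:**
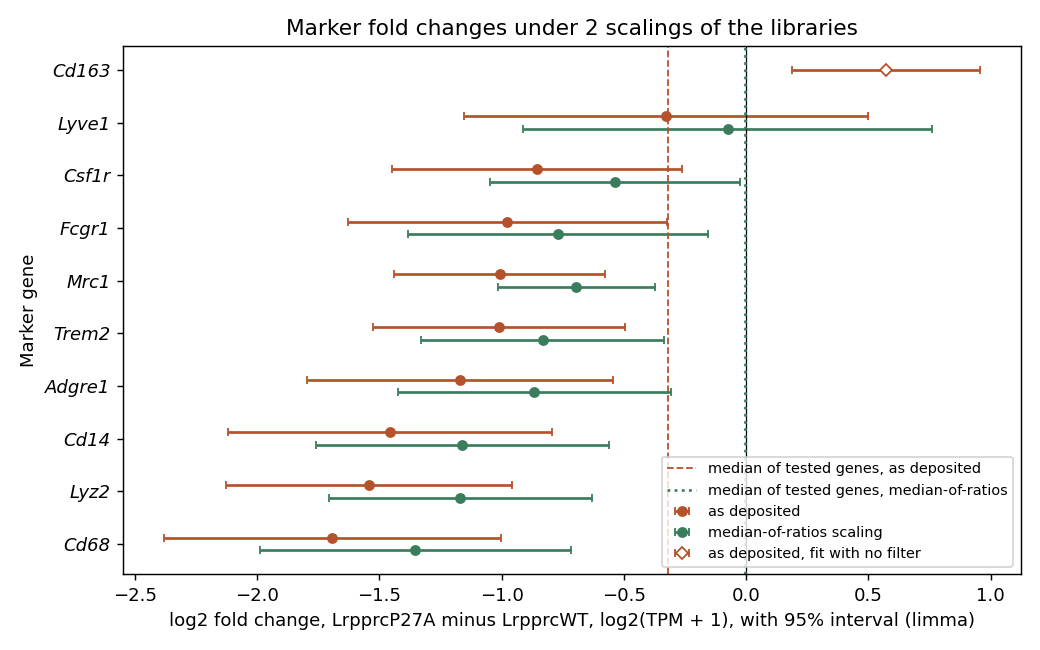
Log2 fold changes (x axis, LrpprcP27A minus LrpprcWT on log2(TPM + 1), limma, with 95% intervals) of the 10 macrophage markers (y axis) as deposited and after median-of-ratios scaling, with dashed and dotted lines at the medians of all tested genes and an open symbol for *Cd163*, fitted without the filter. *Cd68*, at -1.69 as deposited, lies farthest below 0 with 1 TPM added, *Lyve1* at -0.33 sits at the median of all genes, and *Cd163* at 0.57 is the one marker above 0.

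The general markers were lower as a group, with 3 of 3 called, against 23.3% of all genes tested. *Adgre1* encodes F4/80, the surface receptor by which mouse macrophages are most often identified. It was at 7.42, 5.15 and 10.7 TPM with LrpprcWT and at 4.17, 1.86 and 2.59 TPM with LrpprcP27A. The lowest LrpprcWT library stood above the highest LrpprcP27A library, and the means were 7.75 ± 2.79 and 2.87 ± 1.18 (SD, n = 3 each). *Adgre1* fell with LrpprcP27A (log2FC -1.17, SE 0.28, limma adjusted p = 0.0259). *Cd68*, a glycoprotein of the lysosomes and endosomes of phagocytes, was at 19.2, 14.9 and 32.7 TPM with LrpprcWT and at 8.63, 4.06 and 5.58 TPM with LrpprcP27A. Its means, 22.3 ± 9.28 and 6.09 ± 2.33 (SD, n = 3), differed 3.65-fold and the groups did not overlap. Its log2FC was the most negative of the markers with 1 TPM added (-1.69, SE 0.30, adjusted p = 0.0160), but with 0.1 TPM added it was -1.84 and that of *Trem2* was -1.99. *Csf1r*, the receptor through which macrophages receive the survival signals of Csf1 and Il34, was at 8.85, 5.99 and 11.3 TPM with LrpprcWT and at 5.94, 2.82 and 4.36 TPM with LrpprcP27A. Here the groups came close to touching, at 5.99 for LrpprcWT replicate 2 and 5.94 for LrpprcP27A replicate 1. The fall was the smallest of the 8 (log2FC -0.86, SE 0.26, adjusted p = 0.0452). Of the 100-base windows of the *Csf1r* transcript, 20.2% also occur in *Hmgxb3*, an overlapping gene, and reads there could not be assigned to one of them by sequence. *Hmgxb3* was at 4.34 ± 0.669 and 3.99 ± 0.301 TPM (SD, n = 3), so part of the *Csf1r* value is uncertain.

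Of the receptors linked to resident macrophages, *Mrc1* was called lower, *Lyve1* was not called and *Cd163* was below the filter. *Mrc1* encodes the mannose receptor CD206, which takes up glycoproteins. It was at 7.87, 6.49 and 10.2 TPM with LrpprcWT and at 4.13, 2.73 and 3.77 TPM with LrpprcP27A. Its groups did not overlap, and the means of 8.18 ± 1.85 and 3.54 ± 0.727 (SD, n = 3) differed 2.31-fold. *Mrc1* fell with the smallest SE of the tested markers (log2FC -1.01, SE 0.19, adjusted p = 0.0168).

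*Lyve1*, a hyaluronan receptor of perivascular macrophages that lymphatic endothelium also makes, was at 3.56, 1.19 and 2.86 TPM with LrpprcWT and at 1.65, 0.699 and 3.33 TPM with LrpprcP27A. The groups overlapped, since LrpprcP27A replicate 3 exceeded all but LrpprcWT replicate 1. The means were 2.53 ± 1.22 and 1.89 ± 1.33 (SD, n = 3), and the log2FC of -0.33 (SE 0.36, adjusted p = 0.471) had a 95% interval from -1.15 to 0.50. The interval leaves room for a fall as large as that of *Mrc1* and for a modest rise. The permutation p was 0.6 (exact, two-sided), and the fold change changed sign without LrpprcP27A replicate 2 (0.0045) and with quantile normalization (0.085).

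*Cd163* encodes the receptor by which macrophages take up complexes of haemoglobin and haptoglobin. It was at 0.315, 0.581 and 0.480 TPM with LrpprcWT and at 1.08, 0.821 and 1.67 TPM with LrpprcP27A. All LrpprcP27A libraries were higher, the means were 0.459 ± 0.134 and 1.19 ± 0.434 (SD, n = 3), and within pairs the LrpprcP27A value was 3.41, 1.41 and 3.48 times the LrpprcWT value. The mean over the 6 libraries was under 1 TPM, so *Cd163* was not among the genes tested above. Fitted with no filter, its log2FC of 0.57 (SE 0.16) did not pass the threshold in limma (adjusted p = 0.0809, unadjusted p = 0.0103), nor did it with the block, a fit chosen after seeing the data (adjusted p = 0.0594). The difference of its mean log2 values was 1.18 with 0.1 TPM added in place of 1, and 0.87 after rescaling without mitochondrial and ribosomal RNA genes. Of 4400 genes that were above 0 in every library at a mean under 1 TPM, 2.07% lay wholly higher with LrpprcP27A. At such levels the value of 1 TPM added before the logarithm shrinks a fold change, which also holds for *Trem2* and *Fcgr1* below.

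**Figure D2:**
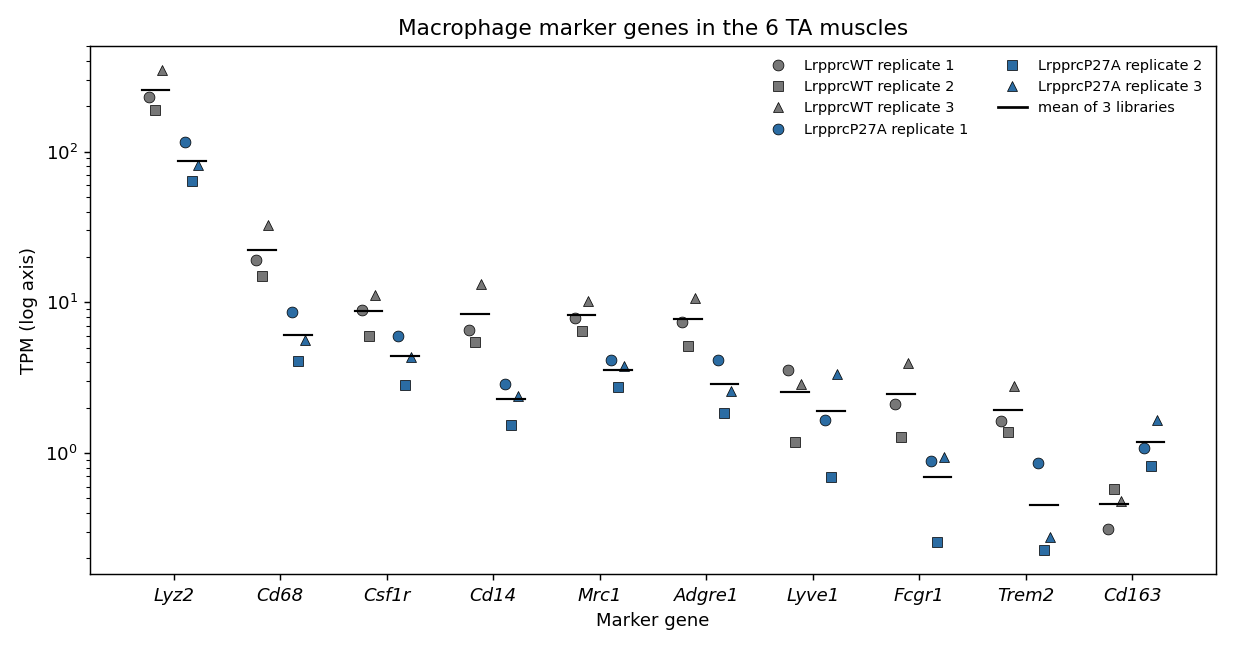
TPM (y axis, log scale) of each macrophage marker (x axis, ordered by level) in the 3 LrpprcWT and 3 LrpprcP27A libraries, with a symbol for each library and a bar at each group's mean. For 8 markers every LrpprcP27A library lies below every LrpprcWT library, for *Lyve1* the groups overlap, and for *Cd163* the LrpprcP27A libraries, at 0.821 to 1.67, lie above the LrpprcWT libraries, at 0.315 to 0.581. Of all genes tested, 47.6% also had every LrpprcP27A library below every LrpprcWT library.

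The markers of defence and phagocytosis were all called lower, 4 of 4, against 23.3% of all genes tested. Of these, *Fcgr1* and *Trem2* passed the filter only through LrpprcWT. *Lyz2*, the lysozyme of macrophages and neutrophils, was the most abundant marker, at 230.1, 189.5 and 347.6 TPM with LrpprcWT and at 116.1, 63.5 and 81.3 TPM with LrpprcP27A. The highest LrpprcP27A library, at 116.1, was below the lowest LrpprcWT library, at 189.5, with means of 255.7 ± 82.1 and 86.9 ± 26.8 (SD, n = 3). *Lyz2* fell by 1.54 on the log2 scale (SE 0.26, adjusted p = 0.0144). Its transcript shares 9.66% of 100-base windows with the predicted gene *Gm67237* and the paralog *Lyz1*, but *Lyz1* was at only 2.98 ± 1.75 TPM with LrpprcWT and 3.88 ± 1.13 TPM with LrpprcP27A (SD, n = 3). *Cd14*, the co-receptor that hands lipopolysaccharide to Tlr4, was at 6.59, 5.44 and 13.2 TPM with LrpprcWT and at 2.87, 1.53 and 2.41 TPM with LrpprcP27A. The groups were apart, and LrpprcWT replicate 3 exceeded the other LrpprcWT libraries by far. The means of 8.40 ± 4.17 and 2.27 ± 0.680 (SD, n = 3) differed 3.70-fold (log2FC -1.46, SE 0.29, adjusted p = 0.0187).

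*Fcgr1*, the high-affinity receptor for IgG, was at 2.13, 1.28 and 3.94 TPM with LrpprcWT and at 0.892, 0.256 and 0.943 TPM with LrpprcP27A. All LrpprcP27A values were under 1 TPM and all LrpprcWT values above it. The means of 2.45 ± 1.36 and 0.697 ± 0.383 (SD, n = 3) differed 3.52-fold, while the log2FC was -0.98 (SE 0.29, adjusted p = 0.0415), and -1.69 with 0.1 TPM added. No 100-base window of *Fcgr1* occurred in another gene, which includes the related receptors *Fcgr3*, at 13.2 ± 6.81 and 5.497 ± 2.68 TPM, and *Fcgr2b*, at 4.77 ± 1.94 and 1.83 ± 0.521 TPM (SD, n = 3). *Trem2*, a lipid-sensing receptor of phagocytic and lipid-laden macrophages, was at 1.63, 1.38 and 2.80 TPM with LrpprcWT and at 0.863, 0.227 and 0.278 TPM with LrpprcP27A. It showed the largest ratio of means, 1.94 ± 0.757 to 0.456 ± 0.353 (SD, n = 3), and its groups did not overlap. Its log2FC was -1.01 (SE 0.23, adjusted p = 0.0242), and -1.99 with 0.1 TPM added.

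In 7 of the 10 markers the order of the libraries from high to low was LrpprcWT replicate 3, 1 and 2 and then LrpprcP27A replicate 1, 3 and 2, an order held by 915 of the 11611 tested genes (7.88%). *Cd163* had all LrpprcP27A libraries above the LrpprcWT libraries, and *Lyve1* mixed the groups. LrpprcP27A replicate 2 was the lowest library for 9 of the 10, and the share of all genes lowest there was not counted. Over the 6 libraries, after each group's mean was subtracted, *Cd68* followed *Lyz2* most closely (r = 1.00 at 2 decimals), *Adgre1* followed *Lyz2* (0.99), *Csf1r* followed *Adgre1* (0.98), *Mrc1* and *Fcgr1* followed each other (0.98), *Trem2* followed *Cd68* (0.97) and *Cd14* followed *Fcgr1* (0.96). The nearest marker to *Lyve1* was *Fcgr1* (0.72), and the nearest to *Cd163* was *Lyve1* (0.44). These correlations describe 6 libraries, and all markers of a library share its scale and its tissue piece.

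Because a ratio of 2 genes within a library does not depend on the scale of that library, each marker was also divided by *Adgre1*. The ratio of *Lyz2* to *Adgre1* was 31.0, 36.8 and 32.5 with LrpprcWT and 27.8, 34.2 and 31.4 with LrpprcP27A. The groups overlapped, and the ratio differed 0.930-fold (exact permutation test, two-sided, p = 0.5). *Cd163* per *Adgre1* was 0.0425, 0.113 and 0.0448 with LrpprcWT and 0.258, 0.442 and 0.643 with LrpprcP27A, 6.99-fold higher in the mean of logarithms, and every LrpprcP27A library was higher (exact permutation p = 0.1, the smallest that 3 against 3 allow). Per *Adgre1*, *Csf1r* was 1.36-fold higher with no overlap (exact permutation p = 0.1). *Cd68* and *Trem2* were 0.752-fold and 0.559-fold their LrpprcWT ratio, also with no overlap (exact permutation p = 0.1 for each). By the same exact test, with overlapping groups, the ratios were not apart for *Mrc1* (1.18-fold, p = 0.3), *Cd14* (0.770-fold, p = 0.2), *Fcgr1* (0.741-fold, p = 0.4) and *Lyve1* (1.86-fold, p = 0.3). All of the 9 ratios share the values of *Adgre1*, and none of these p-values can fall below 0.05.

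**Figure D3:**
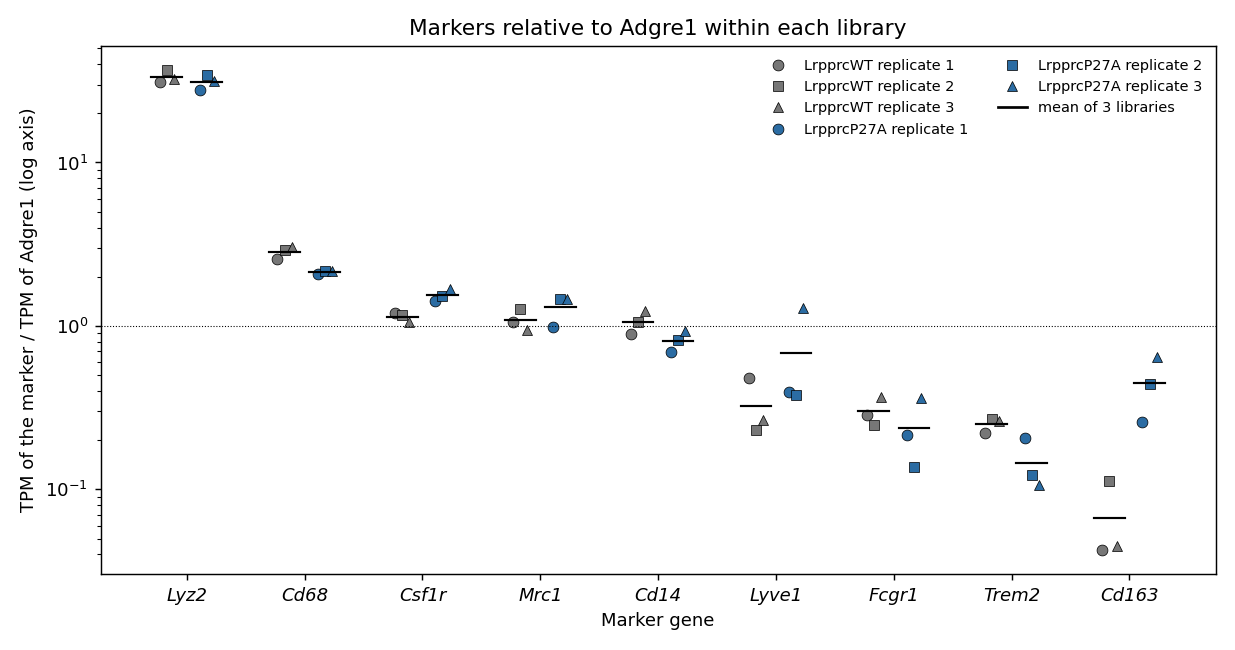
Ratio of each marker's TPM to that of *Adgre1* in the same library (y axis, log scale) for the other 9 markers (x axis), with a symbol for each library, a bar at each group's mean and a dotted line at a ratio of 1. *Lyz2* has means of 33.4 and 31.1, and *Cd163* moves from a mean of 0.0667 with LrpprcWT to 0.448 with LrpprcP27A.

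The ligands, adaptors and partners of the markers were lower in part. Of 11 listed genes 10 were tested, and 4 were called lower and none higher, against 23.3% of all genes called lower. Their median log2FC was -0.82. *Tyrobp*, the signalling adaptor of Trem2, was at 26.6, 22.5 and 38.4 TPM with LrpprcWT and at 15.2, 6.96 and 9.76 TPM with LrpprcP27A. *Fcer1g*, the adaptor of the Fc receptor encoded by *Fcgr1*, was at 20.9, 18.6 and 35.6 TPM against 10.97, 6.18 and 7.85 TPM. Both adaptors had the same order of libraries as most markers, and both fell (log2FC -1.40 with SE 0.27 and adjusted p = 0.0174, and -1.46 with SE 0.26 and adjusted p = 0.0160). *Apoe*, a lipoprotein that binds Trem2, fell by 1.73 (SE 0.35, adjusted p = 0.0188) from 260 ± 95.7 to 79.9 ± 37.7 TPM (SD, n = 3). *Lbp*, which brings lipopolysaccharide to Cd14, fell by 0.87 (SE 0.23, adjusted p = 0.0324).

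The ligands of *Csf1r* were not called in the unpaired comparison. *Csf1* was at 6.33, 5.63 and 8.39 TPM with LrpprcWT and at 5.26, 3.72 and 4.97 TPM with LrpprcP27A (log2FC -0.46, SE 0.18, adjusted p = 0.0811). *Il34* was at 4.19, 4.18 and 5.01 TPM against 3.95, 2.21 and 3.71 TPM (log2FC -0.37, SE 0.19, adjusted p = 0.148). The groups of both ligands were apart, by small margins. For the partners of *Cd14*, *Tlr4* had a log2FC of -0.78 (SE 0.27, adjusted p = 0.0593) and its co-factor *Ly96* one of -0.54 (SE 0.18, adjusted p = 0.0549). For *Cd163*, neither haptoglobin, *Hp*, with a log2FC of -0.28 (SE 0.33, adjusted p = 0.491), nor *Hmox1*, which breaks down the haem that Cd163 brings in, with -1.20 (SE 0.44, adjusted p = 0.0700), passed the threshold. *Hmox1* was at 14.7, 22.0 and 59.98 TPM with LrpprcWT and at 11.3, 8.04 and 15.4 TPM with LrpprcP27A, so that its groups overlapped. With the block 9 of the 10 partners were called lower, all but *Hp*, against 48.4% of all genes. With median-of-ratios scaling 3 were, *Tyrobp*, *Fcer1g* and *Apoe*, against 6.03% of all genes.

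Among 10 listed transcription factors of macrophages 9 were tested, of which 2 were called lower and none higher, a share near the 23.3% of all genes called lower. *Spi1*, which encodes PU.1, was at 3.30, 2.91 and 4.45 TPM with LrpprcWT and at 2.27, 1.17 and 1.396 TPM with LrpprcP27A. Its groups were apart, and it fell by 0.81 (SE 0.20, adjusted p = 0.0282). *Runx1*, a factor of blood cell development that denervated muscle fibres also express, fell from 4.37 ± 2.21 to 0.817 ± 0.188 TPM (SD, n = 3; log2FC -1.48, SE 0.28, adjusted p = 0.0167). *Cebpb* and *Maf*, the most abundant of the list, did not pass the test, with log2FC of -0.55 and 0.06. With the block 4 of the factors were called lower, against 48.4% of all genes, and with median-of-ratios scaling 1 was, against 6.03%. With both together 1 was called lower, against 15.8% of all genes, and 2 higher, *Maf* (log2FC 0.42, limma adjusted p = 0.0462) and *Nr1h3* (0.36, limma adjusted p = 0.0415).

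Most other macrophage genes tested were lower too. Of 17 listed genes 13 were tested, and 11 were called lower and none higher, against 23.3% and 1.34% of all genes tested. Their median log2FC was -1.36. *C1qa* and *C1qb*, which encode chains of the complement starter C1q, fell by 1.38 (SE 0.35, adjusted p = 0.0306) and 1.39 (SE 0.39, adjusted p = 0.0373). *Ctss*, a lysosomal protease of antigen presentation, was at 46.8, 36.3 and 93.0 TPM with LrpprcWT and at 21.8, 11.8 and 15.3 TPM with LrpprcP27A, and fell by 1.71 (SE 0.33, adjusted p = 0.0173). *Mpeg1*, a pore-forming protein of macrophages, fell by 1.57 (SE 0.30, adjusted p = 0.0171). *Fcgr3* and *Mertk*, a receptor for the uptake of dead cells, were the tested genes not called, with log2FC of -1.12 (SE 0.40, adjusted p = 0.0663) and -0.41 (SE 0.26, adjusted p = 0.222). With median-of-ratios scaling 6 of the 13 were called lower, against 6.03% of all genes. *C1qa* and *C1qb* were not called there (limma adjusted p = 0.0816 and 0.103).

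Of 10 listed genes of resident macrophages 7 were tested, 1 was called lower and 1 higher, against 23.3% and 1.34% of all genes. The median log2FC was -0.42. *Cbr2*, a carbonyl reductase, was at 15.3, 18.3 and 19.2 TPM with LrpprcWT and at 19.97, 35.3 and 34.9 TPM with LrpprcP27A. Every LrpprcP27A library was higher, and *Cbr2* rose by a log2FC of 0.70 (SE 0.21, adjusted p = 0.0454). *Gas6*, a bridging protein in the uptake of dead cells, fell by 0.56 (SE 0.11, adjusted p = 0.0171). *Pf4*, a chemokine that platelets and resident macrophages make, had overlapping groups, at 11.8, 14.2 and 28.8 TPM against 12.9, 7.85 and 9.31 TPM (log2FC -0.73, SE 0.30, adjusted p = 0.0952). With the block 4 of the 7 were called lower, against 48.4% of all genes, and 1 higher. With median-of-ratios scaling none was called lower, against 6.03% of all genes, and 1 higher, with *Cbr2* higher under both. A test of resident against other macrophage genes was not made.

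Of 8 listed genes of monocytes and freshly recruited cells 4 were tested, and 2 were called lower, against 23.3% of all genes tested. *Fn1*, fibronectin, which fibroblasts also make, fell by 1.77 (SE 0.34, adjusted p = 0.0174), and *Plac8* fell by 1.06 (SE 0.20, adjusted p = 0.0171). *Hp* stands in this list as well and was not called. Neither was the monocyte receptor *Ccr2* (log2FC -0.38, SE 0.15, limma adjusted p = 0.0878).

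**Figure D4:**
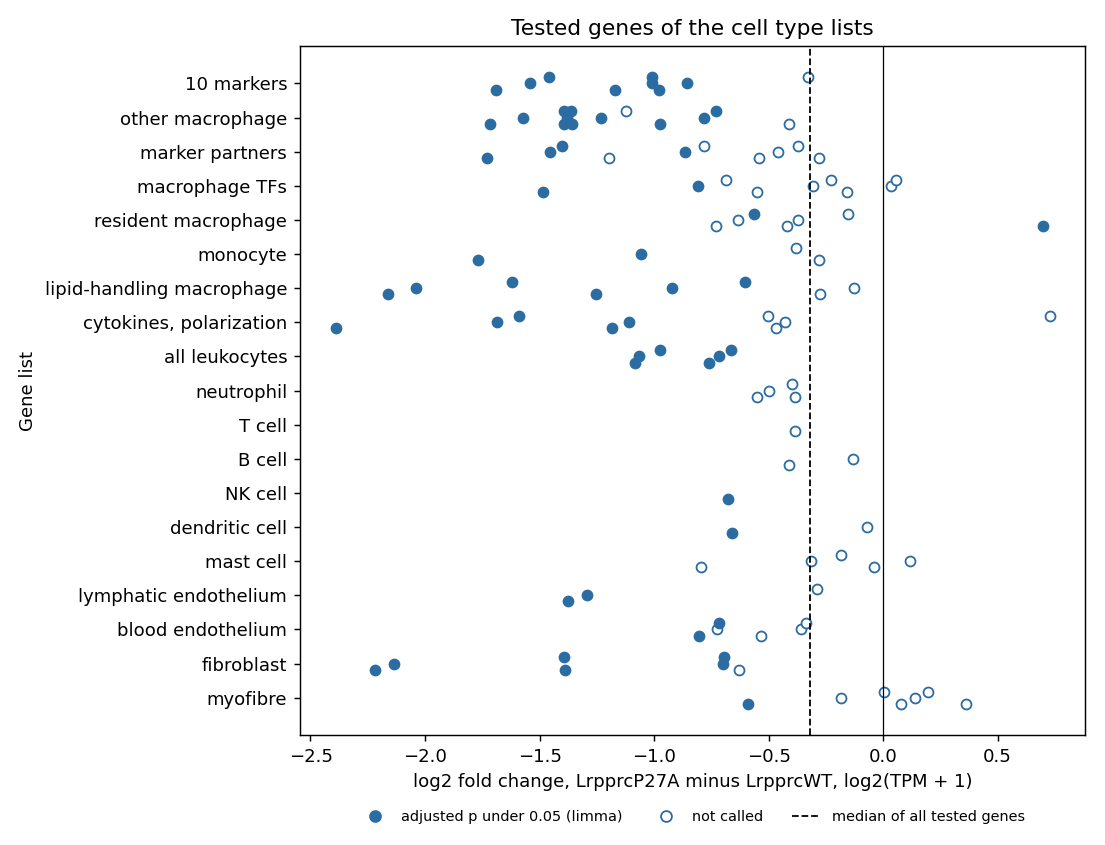
Log2 fold change (x axis, LrpprcP27A minus LrpprcWT on log2(TPM + 1)) of each tested gene in the lists (y axis), with filled symbols for genes called at an adjusted p under 0.05 in limma, open symbols for the others and a dashed line at the median of all tested genes, -0.32. The markers and other macrophage genes lie mostly below -0.5, fibroblast genes lie there too, and the muscle fibre genes lie above the dashed line, except *Mylpf* at -0.59.

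Markers of some other cells of muscle were also lower, and their part in the result was not tested. For comparison, 23.3% of all genes tested were called lower, 48.4% with the block and 6.03% with median-of-ratios scaling. All 6 genes shared by leukocytes were called lower, among them *Cd53* (log2FC -1.08), *Lcp1* (-1.07), *Cd52* (-0.97) and *Coro1a* (-0.72), and their summed level was 28.01 to 43.6 TPM with LrpprcWT and 12.7 to 22.4 TPM with LrpprcP27A. With median-of-ratios scaling 1 of the 6 was called lower. Of 7 fibroblast genes 6 were called lower, with sums of 873 to 1463 TPM and 239.5 to 512 TPM. *Col1a1* and *Col3a1*, which encode fibrillar collagens, fell by 2.22 (SE 0.34, limma adjusted p = 0.0124) and 2.14 (SE 0.32, limma adjusted p = 0.0116). With 1 TPM added, which shrinks the fold change of *Trem2*, none of the 10 markers fell as much. *Dcn* fell by 0.69 (SE 0.19, limma adjusted p = 0.0366). Of 6 genes of blood endothelium 2 were called lower, *Cdh5* (log2FC -0.80, SE 0.24, adjusted p = 0.0424) and *Emcn* (-0.72, SE 0.18, adjusted p = 0.0306). *Pecam1* and *Tie1* were not called, with log2FC of -0.73 and -0.53, and the sums were 164 to 298 TPM and 122 to 168 TPM. With the block all 6 endothelial genes were called lower, and with median-of-ratios scaling none was. For lymphatic endothelium, which also makes *Lyve1*, 3 of 6 genes were tested and 2 were called lower, *Ccl21a* (log2FC -1.37, SE 0.26, adjusted p = 0.0171) and *Pdpn* (-1.29, SE 0.24, adjusted p = 0.0168), while *Flt4* was not (-0.29, SE 0.25, adjusted p = 0.353). The sums were 33.2 to 58.9 TPM and 13.4 to 25.1 TPM, and the lineage factor *Prox1* was under the filter.

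Of 9 neutrophil genes 4 were tested and none was called in limma, and *S100a9* (log2FC -0.55, SE 0.19, adjusted p = 0.0581), *Csf3r* (-0.50) and *S100a8* (-0.40) lay below 0. Their summed level was 35.6 to 57.5 TPM with LrpprcWT and 25.6 to 41.7 TPM with LrpprcP27A, *Mpo* was at 0 in all 6 libraries and *Ly6g* was near 0. Among 8 T cell genes only *Cd2* was tested, with a log2FC of -0.38 (SE 0.18, adjusted p = 0.123), and the sums were 3.63 to 5.12 TPM and 1.13 to 2.60 TPM, with *Trbc2* at 0 in all libraries. The B cell genes *Cd79a* and *Cd79b*, of 5 listed, were not called (log2FC -0.41 and -0.13), with sums of 2.64 to 4.58 TPM and 1.69 to 3.34 TPM. Of 5 natural killer cell genes only *Nkg7* was tested, and it fell by 0.68 (SE 0.20, adjusted p = 0.0413), with sums of 3.53 to 4.94 TPM and 1.12 to 2.40 TPM. For dendritic cells, *Itgax*, which macrophages also express, fell by 0.66 (SE 0.20, adjusted p = 0.0444) and the lineage factor *Zbtb46* had a log2FC of -0.07 (SE 0.18, adjusted p = 0.753), the other 5 genes of the list being under the filter, with sums of 5.06 to 8.14 TPM and 3.22 to 5.67 TPM. None of 5 tested mast cell genes was called in limma, with *Kit* at -0.79, *Cpa3* at -0.31, *Cma1* at -0.18, *Mcpt4* at -0.04 and *Tpsb2* at 0.12, and sums of 8.498 to 16.6 TPM and 6.92 to 13.9 TPM. Of 7 muscle fibre genes 1 was called lower, the myosin light chain *Mylpf* (log2FC -0.59, SE 0.11, adjusted p = 0.0168), and none higher, and *Acta1*, *Tnnt3* and *Myh4* had log2FC of -0.18, 0.08 and 0.36. The median log2FC of the muscle fibre genes was 0.08, and 0.45 with median-of-ratios scaling. With the block 2 of the neutrophil genes and 1 each of the T cell, B cell and mast cell genes were called lower, against 48.4% of all genes tested.

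The markers below lie at the following places of build GRCm39 in the GENCODE annotation, each a protein-coding gene. The places of *Csf1r* and *Cd14* are not reported here. *Adgre1* is at chr17:57665573-57790527 (plus strand) and *Trem2* at chr17:48653429-48661175 (plus strand). *Cd68* is at chr11:69555037-69557067 (minus strand), *Mrc1* at chr2:14234151-14336926 (plus strand) and *Cd163* at chr6:124281606-124307560 (plus strand). *Lyve1* is at chr7:110448585-110462460 (minus strand), *Fcgr1* at chr3:96190225-96201338 (minus strand) and *Lyz2* at chr10:117111557-117118346 (minus strand). These coordinates are of another build than those of the promoters.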

How the data were processed

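Poly(A) RNA of whole TA muscle was sequenced with a kit that does not keep strand. The authors trimmed the reads, used CLC Genomics Workbench to align them to build GRCm39, and deposited the TPM of 41709 genes, with no further normalization between libraries. TPM keeps no depth, so the depth and the counting error of each library are unknown.

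The deposited TPM were used as log2(TPM + 1). The 11611 genes whose mean TPM reached 1 were tested between the groups with limma 3.58.1 under R 4.3.3 (trend, Benjamini-Hochberg adjustment over these genes, called under 0.05). The fit was tested on simulated data, where 196 of 200 changed genes and 4 unchanged genes of 11611 were called at a log2 fold change of 2 in size. That size is larger than the log2FC of any marker. The simulation varied each gene independently, with no shift of whole libraries, so it gives no error rate for these data. Both groups have the same library numbers, and the study calls the muscles contralateral. After subtraction of its group's mean, each library was correlated over genes with the library of its number. The r were 0.36, 0.53 and 0.36, each over 0.1, and the number was also used as a block. Libraries of different numbers were not correlated and the values were not rescaled, so these r cannot show that a number is a mouse. The labels do not say outright that a number is a mouse. If it is, the unpaired fit treats paired muscles as independent.

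Exact permutation tests used SciPy 1.17.1. All 10 markers are named with every value, and all tested partners are named. Of each other list the 3 genes of highest mean TPM and the 2 of largest log2 fold change are named, except 1 gene that is not reported here. The related Fc receptors, *Lyz1*, *Hmgxb3*, *Gm67237*, *Lrpprc*, *Nr1h3*, *Emcn*, *Mertk*, *Ccr2*, *Ly6g*, *Mpo*, *Trbc2* and *Prox1* were named outside this rule after values were seen. The markers and the lists were chosen with earlier results of these data known. Shared sequence was read as identical 100-base windows of each marker's longest coding transcript in GENCODE release M39, and positions were matched by symbol.

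The alternatives were another pseudocount, other filters, no trend, the Kruskal-Wallis test of the study, the block, 3 other scalings and each library left out. The block without a filter was added after seeing the data.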

Additional observations from a re-analysis of the deposited data

How the results depend on the processing

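The direction of the 8 lower markers was the same under all alternatives run, and the number called depended on the setting. In place of 8 markers and 2705 of all genes called lower, median-of-ratios scaling gave 5 and 700, rescaling without mitochondrial and ribosomal RNA genes 4 and 662, and quantile normalization 4 and 518. With the filter raised to a mean TPM of 5, at which 6 markers were tested, 5 markers and 1560 genes were called. With no filter 0 markers and 42 genes were called (8 markers and 6671 genes lower at an unadjusted p under 0.05), and the cause was not tested. The Kruskal-Wallis test called 0 markers and 0 genes (8 and 5530 lower at an unadjusted p under 0.05), since 3 against 3 bound its p. The replicate block called 8 and 5619. Block and median-of-ratios scaling together called 8 and 1839, and the block with no filter, chosen after seeing the data, 8 and 3210. Leaving out 1 library gave 0 to 8 markers and 15 to 6913 genes, and largest adjusted p from 0.0889 (*Lyz2*) to 0.171 (*Csf1r*). *Lyve1*, not called, reversed to 0.085 with quantile normalization, and lay between -0.67 and 0.0045, without LrpprcP27A replicate 2, when 1 library was left out. The block changed no marker's call on the TPM scale with the filter at a mean of 1. It raised the count under median-of-ratios scaling and with no filter. *Cd163*, below the filter and not computed under quantile normalization, moved from 0.57 to 1.18 with a pseudocount of 0.1 and to 0.87 with the rescaling. That pseudocount moved *Trem2* to -1.99 and *Fcgr1* to -1.69. With 3 libraries a group and no depth, differences of *Lyve1* and *Cd163* of the size seen could not be settled, and the cause of the scale shift between the groups was not tested.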

Other observations

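Secreted factors of macrophages and other cells were lower in part. Of 13 listed cytokine and polarization genes 9 were tested, and 5 were called lower and none higher (limma, adjusted p under 0.05), against 23.3% of all genes called lower. *Il6* was at 8.36, 1.29 and 12.3 TPM with LrpprcWT and at 0.744, 0.0420 and 0.0838 TPM with LrpprcP27A. LrpprcWT replicate 2 was far below the other LrpprcWT libraries but above all LrpprcP27A libraries (log2FC -2.39, SE 0.56, adjusted p = 0.0257). *Ptgs2*, the inducible cyclooxygenase, fell by 1.68 (SE 0.47, adjusted p = 0.0381), *Il1b* by 1.59 (SE 0.33, adjusted p = 0.0205), *Tgfb1* by 1.11 (SE 0.25, adjusted p = 0.0246) and the growth factor *Igf1* by 1.18 (SE 0.23, adjusted p = 0.0180). *Retnla*, a gene of alternatively activated macrophages, was at 4.12, 22.9 and 13.8 TPM with LrpprcWT and at 15.0, 24.6 and 19.1 TPM with LrpprcP27A, so that the groups overlapped (log2FC 0.73, SE 0.48, adjusted p = 0.238), but with the replicate block it was called higher (adjusted p = 0.00548). *Arg1* was near 0 in all libraries.

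Genes of lipid-handling, scar-associated macrophages, among which *Trem2* is counted, had 6 of 8 tested members called lower and none higher. Of all genes tested, 23.3% were called lower. *Spp1*, osteopontin, was at 9.18, 5.36 and 14.8 TPM with LrpprcWT and at 2.77, 0.650 and 0.833 TPM with LrpprcP27A. *Lgals3*, galectin-3, was at 25.8, 16.4 and 39.7 TPM against 8.43, 3.40 and 5.56 TPM. The groups did not overlap for either gene. They fell by 2.16 (SE 0.38, limma adjusted p = 0.0158) and 2.04 (SE 0.34, limma adjusted p = 0.0141). With 1 TPM added, which shrinks the fold change of *Trem2*, none of the 10 markers fell as much. *Cd63*, found in the vesicles of many cells, fell by 0.60 (SE 0.17, adjusted p = 0.0405). *Ctsd* and *Lpl*, the most abundant members beside it and made by many cells, did not pass the test (log2FC -0.13 with adjusted p = 0.434 and -0.28 with adjusted p = 0.200). With median-of-ratios scaling 2 of the 8 lipid-handling genes and 4 of the 9 cytokine genes were called lower, against 6.03% of all genes. With the block 7 cytokine genes were called lower, against 48.4% of all genes, and 1 higher. *Igf1* and *Arg1* were named after their values were seen.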
